A study of Mus musculus with 13 samples.

Results

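The expression of 10 Wnt pathway genes was followed through the lungs of bleomycin-treated and control mice: the ligands Wnt2, Wnt3a, Wnt5a and Wnt10a, the secreted antagonists Sfrp1, Sfrp2, Frzb, Wif1 and Dkk3, and the feedback gene Axin2. They were taken by gene symbol from the count and TPM tables, where all 10 were found among 20270 genes, and all 10 were among the 15315 genes that passed the filter on low counts. Bulk RNA from the lower right lobe was sequenced in 13 libraries from mice on the C57BL/6J background, which the methods describe as male and 13 weeks old for the wild-type animals. The 4 Control libraries came from wild-type mice, with sterile saline as the vehicle of control groups, and the 5 WT bleomycin libraries from wild-type mice at day 14 after 1 oropharyngeal dose of bleomycin, a DNA-damaging drug that injures the alveoli and is followed by fibrosis. The 4 CB1R KO bleomycin libraries came from Cnr1-/- mice, which lack the cannabinoid receptor CB1R in all cells, also at day 14 after bleomycin. No CB1R KO group without bleomycin was part of the data used here, so a difference between the genotypes that exists before injury and a difference in the response to bleomycin cannot be told apart.

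Wnt proteins are secreted lipid-modified ligands that bind Frizzled receptors. With Lrp5 or Lrp6 as co-receptor they keep beta-catenin from being degraded, and beta-catenin with TCF/LEF factors then switches on target genes, among them Axin2, a scaffold of the destruction complex and a widely used readout of this branch. Other ligands, Wnt5a foremost, act mainly through Ror receptors and planar polarity proteins without beta-catenin. Secreted antagonists hold ligands back: the Sfrp proteins, Frzb and Wif1 bind Wnt ligands outside the cell, Dkk1 and Dkk2 act on the Lrp co-receptors, and the role of Dkk3 is less clear. In the lung, Wnt2 takes part in development in the embryo and is made by fibroblasts and endothelium, and Axin2 marks Wnt-responsive alveolar type II cells and fibroblasts.

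Promoters of 3 genes that moved in different directions are shown because the TCF/LEF factors at the end of the pathway bind a short DNA motif. The windows, of 250 bases before to 50 bases after the start site, come from RefSeq on GRCm38.p6. The set of windows used here held 6 of the 10 genes. Those shown lie at chr11:108920099-108920398 on the plus strand for Axin2, at chr6:18030396-18030695 on the minus strand for Wnt2 and at chr2:80447347-80447646 on the minus strand for Frzb. The sequences read 5′ to 3′ along the gene, and capitals mark matches to the TCF/LEF core (CTTTG or CAAAG) and to the GC box (GGGCGG or CCGCCC), the 2 orientations of each motif.
Axin2: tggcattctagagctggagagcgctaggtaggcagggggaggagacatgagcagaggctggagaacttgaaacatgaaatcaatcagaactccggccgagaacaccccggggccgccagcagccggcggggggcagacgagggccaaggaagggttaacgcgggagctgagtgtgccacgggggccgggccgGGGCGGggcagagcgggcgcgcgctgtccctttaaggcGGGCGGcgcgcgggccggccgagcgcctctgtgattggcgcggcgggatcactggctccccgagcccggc
Wnt2: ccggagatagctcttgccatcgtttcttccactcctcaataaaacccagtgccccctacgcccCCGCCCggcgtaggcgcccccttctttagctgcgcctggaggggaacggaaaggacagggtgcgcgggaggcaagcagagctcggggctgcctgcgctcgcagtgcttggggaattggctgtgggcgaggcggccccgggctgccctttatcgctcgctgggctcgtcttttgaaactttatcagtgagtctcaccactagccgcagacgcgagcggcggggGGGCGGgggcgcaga
Frzb: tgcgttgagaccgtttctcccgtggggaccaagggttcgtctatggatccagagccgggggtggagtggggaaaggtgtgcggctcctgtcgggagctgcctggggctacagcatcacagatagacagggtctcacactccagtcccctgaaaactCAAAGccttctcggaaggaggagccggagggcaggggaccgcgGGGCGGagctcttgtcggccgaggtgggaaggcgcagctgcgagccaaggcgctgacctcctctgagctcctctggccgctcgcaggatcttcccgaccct
Axin2, the gene named above as a readout, held 2 GC boxes and no TCF/LEF core in this window. Wnt2 also held 2 GC boxes and no core, and Frzb held 1 of each. Of the members with a window that is not shown, Wif1 held 1 core and 2 GC boxes, Wnt3a 9 GC boxes and no core, and Sfrp2 neither. After bleomycin in wild-type lungs the core was thus held by Frzb, which rose, and by Wif1, which fell. It was absent from Sfrp2, which rose, and from Axin2, Wnt2 and Wnt3a, which fell. Of all 32851 promoter windows, 53.9% held the core and 35.7% the GC box. Whether the windows of these genes differ from the others in either match was not tested. The GC content was 70.0% for Axin2, 65.7% for Wnt2 and 64.7% for Frzb, against a median of 52.7% over all windows. Motifs outside the window were not searched.

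The libraries held 14615904 to 16662580 counts each, except CB1R KO replicate 11 with 53463884. Levels are given as CPM, which is the read count of a gene scaled to library size, or as TPM, which is also scaled to transcript length. A gene is said to be called where its adjusted p was under 0.05. Lung markers were present in every library, with the summed level of 6 type II cell genes between 18959.7 and 37202 TPM. Of the cell type marker lists not taken up beside a gene below, WT bleomycin against control had 6 of 6 monocyte-derived macrophage genes higher, 6 of 6 cardiac muscle genes lower, 2 adventitial fibroblast genes higher and 1 lower, 3 smooth muscle genes higher and 1 lower, 1 mesothelial gene higher and 2 lower, and 2 genes each of type I cells, alveolar macrophages, Schwann cells and adipocytes and 1 of ciliated cells lower. The level of Cnr1 did not check the genotype, since its transcripts were counted at 2.47 to 5.63 CPM in the libraries labelled CB1R KO and at 3.46 to 6.97 CPM in the WT bleomycin libraries. Within the CB1R KO group replicate 10 had the lowest type II and alveolar fibroblast sums. Its type II sum was 23678 TPM against 33040.4 to 37202 in the others. Its alveolar fibroblast sum of 1267 TPM fell inside the WT bleomycin range of 1003 to 1378, while replicates 8, 9 and 11 had 2472, 2198 and 1669 TPM. On that list replicate 11 lay nearer to replicate 10 than to replicate 9. Results for CB1R KO against WT bleomycin are also given without replicate 10, the library closest to WT bleomycin on these sums. It was picked from these same data for that likeness, so larger differences without it were to be foreseen. The values without replicate 10 therefore add no support for a difference. Leaving it out raised calls over all genes from 150 to 653, whereas leaving out replicate 8, 9 or 11 lowered them to 9, 1 and 3. Replicates 4 and 4-B2 of WT bleomycin share a number in their titles, and whether they come from 1 animal or mark a second batch is not stated. Without 4-B2 the number of the 10 genes called stayed at 10 for WT bleomycin against control and at 0 for CB1R KO against WT bleomycin.

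Levels between genes were compared in TPM, which is scaled for transcript length. In control lungs Dkk3 stood highest at 45.0 ± 4.03 TPM (SD, n = 4), followed by Axin2 at 18.5 ± 2.18, Wnt2 at 14.0 ± 2.52 and Wnt3a at 12.4 ± 1.12. Sfrp1, Sfrp2 and Wnt5a came next at 8.84, 6.69 and 6.05 TPM, then Wif1 at 3.68, and Frzb and Wnt10a were near the floor at 0.116 and 0.0477 TPM. The ranges of neighbors overlapped from Wnt2 through Wnt5a, and for Frzb and Wnt10a. In WT bleomycin lungs the order changed at the top, where Sfrp1 reached 73.4 ± 19.5 TPM (SD, n = 5) beside Dkk3 at 53.03 ± 4.26, with overlapping ranges. In CB1R KO bleomycin lungs Dkk3 was again first, at 59.2 ± 1.402 TPM (SD, n = 4), and its range did not overlap that of Sfrp1 at 41.9 ± 9.90.

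**Figure D1:**
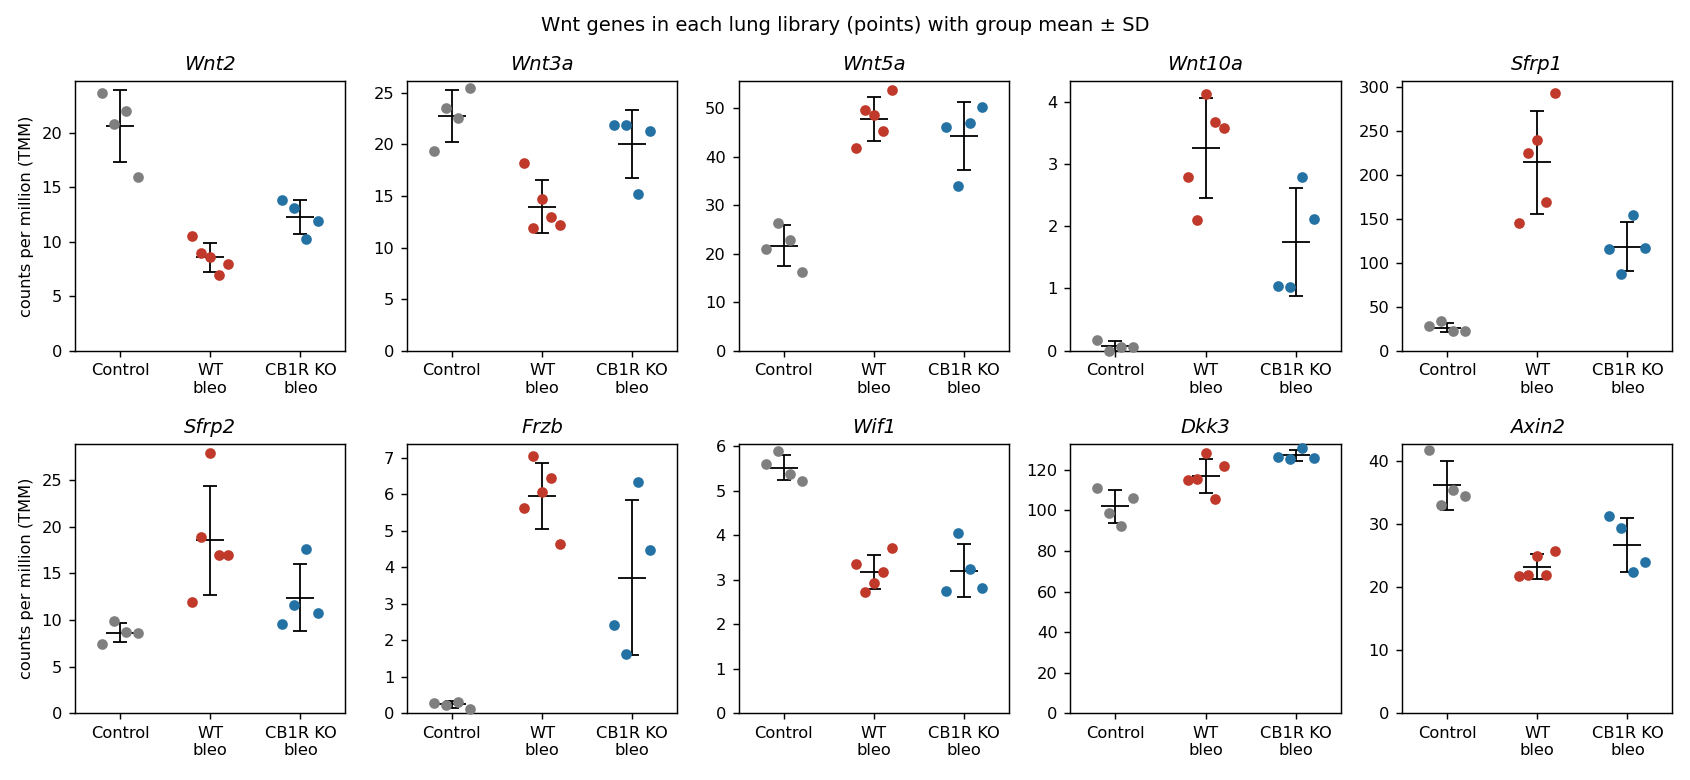
CPM values (read counts scaled to library size, TMM-normalized, linear axis from 0) of the 10 genes in each library, with points for libraries and bars for the group mean and SD over 4, 5 and 4 libraries. For 9 of the 10 genes, Dkk3 being the exception, no WT bleomycin library reached into the control range.

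The first comparison asked which Wnt genes differed in the wild-type lung at day 14 after bleomycin. All 10 genes passed an adjusted p of 0.05 in edgeR's quasi-likelihood test over all genes, 6 higher (Wnt5a, Wnt10a, Sfrp1, Sfrp2, Frzb and Dkk3) and 4 lower (Wnt2, Wnt3a, Wif1 and Axin2). Such calls were common, since 25.0% of the 15315 genes tested were called higher and 23.9% lower. The groups did not overlap for 9 of the 10 genes, against 40.3% of all genes. The genes were picked with such results known, and 2 of them, Wnt10a and Frzb, passed the filter only through the bleomycin libraries, where they were high, so the count gives no measure of how unusual the family is. The values describe whole tissue, in which fewer cells of a type and less RNA per cell cannot be told apart.

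Among the ligands, Wnt2 fell. It was counted at 23.7, 20.8, 22.0 and 15.98 CPM in control replicates 3, 21, 24 and 26, and at 10.5, 8.96, 8.62, 6.92 and 7.96 CPM in WT bleomycin replicates 4, 2, 5, 4-B2 and 7. Every bleomycin library lay below every control. A fitted log2 fold change of -1.26 ± 0.14 (SE) made a 2.40-fold lower level, with an adjusted p of 5.75e-06. Alveolar fibroblast markers moved the same way, with 5 of 6 called lower and a summed level of 1003 to 1378 TPM against 3778 to 4692 TPM in controls, and so did all 5 endothelial markers, with 1029 to 1233 TPM against 1498 to 1942. Their part in the lower Wnt2 was not tested.

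Wnt3a, a ligand that typically signals through beta-catenin, fell less. It stood at 19.4, 23.6, 22.6 and 25.4 CPM in the controls and at 18.2, 11.9, 14.7, 12.9 and 12.2 CPM after bleomycin. The highest bleomycin library, replicate 4, lay close under the lowest control. For Wnt3a the log2 fold change was -0.70 ± 0.14 (SE; adjusted p = 0.000915). Type II cell markers fell alongside, 5 of 6 being called lower, from 31786 to 37152 TPM in the controls to 18959.7 to 22654 TPM after bleomycin, and their part in this result was not tested.

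Wnt5a, the ligand known for signaling without beta-catenin, rose. Its control values of 21.0, 26.4, 22.8 and 16.2 CPM lay below all 5 bleomycin values of 41.8, 49.7, 48.6, 45.3 and 53.7 CPM. The log2 fold change of 1.14 ± 0.13 (SE) was a 2.21-fold rise with an adjusted p of 1.13e-05. In the GENCODE M21 annotation exons of Wnt5a overlap Gm2670 on the opposite strand. As the strand setting of the counting was not given in the sources used here, reads of the pair cannot be told apart.

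Wnt10a, a ligand known from skin, hair and tooth development, was close to absent without bleomycin. The 4 controls had 3, 0, 1 and 1 estimated counts, and the 5 WT bleomycin libraries had 44, 34, 66, 53 and 58. Over the summed counts, 5 against 255, the ratio scaled by library size was 41.9, with an exact 95% interval of 17.7 to 130 that covers counting error only. The edgeR adjusted p was 2.85e-06. Even so the level after bleomycin was only 2.04 ± 0.463 TPM (SD, n = 5), below every Wnt5a library.

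Among the antagonists, Sfrp1, whose product binds Wnt ligands outside the cell, rose. It was counted at 27.6, 33.8, 22.2 and 22.0 CPM in the controls and at 146, 225, 240, 169 and 294 CPM in the WT bleomycin libraries. The lowest bleomycin library lay far above the highest control. Sfrp1 rose 8.12-fold (log2 fold change 3.02 ± 0.21, SE, adjusted p = 2.11e-07), the lowest adjusted p of the 10 genes. The 6 activated fibroblast markers, Cthrc1, Postn, Col1a1, Col3a1, Adam12 and Lrrc15, were all called higher as well, with summed levels of 1508 to 2009 TPM against 338 to 452 TPM in the controls, and their part in the rise was not tested.

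Frzb, the Sfrp-family antagonist also called Sfrp3, had 2.00 to 5.08 estimated counts in the controls and 75.0 to 114 in the WT bleomycin libraries. In CPM the controls lay at 0.297, 0.240, 0.320 and 0.129, and the bleomycin libraries at 5.64, 7.04, 6.06, 6.44 and 4.63. The ratio of summed counts was 24.0 (exact 95% interval 14.6 to 42.4, counting error only), and the edgeR adjusted p was 1.61e-06. Frzb is also known from cartilage. The 5 cartilage markers summed to 0.126 to 0.976 TPM in the WT bleomycin libraries and to 0.0721 to 0.341 TPM in the controls, none of them passed the filter, and their part in the rise was not tested.

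Sfrp2, another member of the family, rose from 7.43, 9.85, 8.77 and 8.57 CPM in the controls to 11.97, 18.9, 27.9, 17.03 and 16.97 CPM after bleomycin. The spread among bleomycin libraries was wide, with replicate 5 more than 2 times replicate 4, yet the groups did not overlap. In edgeR the log2 fold change was 1.10 ± 0.22 (SE; adjusted p = 0.000958). Exons of Sfrp2 overlap Gm26771 on the opposite strand, and the reads of the pair cannot be told apart.

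Wif1, which binds Wnt ligands through its WIF domain, moved the other way. It fell from 5.59, 5.89, 5.38 and 5.22 CPM in the controls to 3.36, 2.72, 2.94, 3.18 and 3.70 CPM after bleomycin, with no overlap. This was a log2 fold change of -0.79 ± 0.16 (SE; adjusted p = 0.000684).

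Dkk3, the most abundant member in control lungs, changed least. Its controls stood at 111, 98.7, 92.2 and 106 CPM and the WT bleomycin libraries at 115, 116, 128, 105.5 and 122 CPM. The groups overlapped, as replicate 4-B2 lay below 2 of the 4 controls. The log2 fold change of 0.20 ± 0.07 (SE) had an adjusted p of 0.0212, and this call was lost without control replicate 21 (adjusted p = 0.0594) or without control replicate 24 (adjusted p = 0.0800). Leaving out any other library kept it.

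Axin2, the target and feedback gene, fell. The controls stood at 41.8, 33.0, 35.5 and 34.5 CPM and the bleomycin libraries at 21.8, 21.9, 24.9, 22.0 and 25.9 CPM, a clear gap. The log2 fold change was -0.63 ± 0.11 (SE), a 1.55-fold lower level with an adjusted p of 0.000209. Type II and alveolar fibroblast markers moved the same way, with 5 of 6 called lower in each list. Their mean sums in controls and WT bleomycin were 35532 and 20789 TPM for type II cells and 4353 and 1216 TPM for alveolar fibroblasts. The part of these cells in the lower Axin2 was not tested. Exons of Axin2 overlap Gm11670 on the opposite strand, so reads of the pair cannot be told apart.

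**Figure D2:**
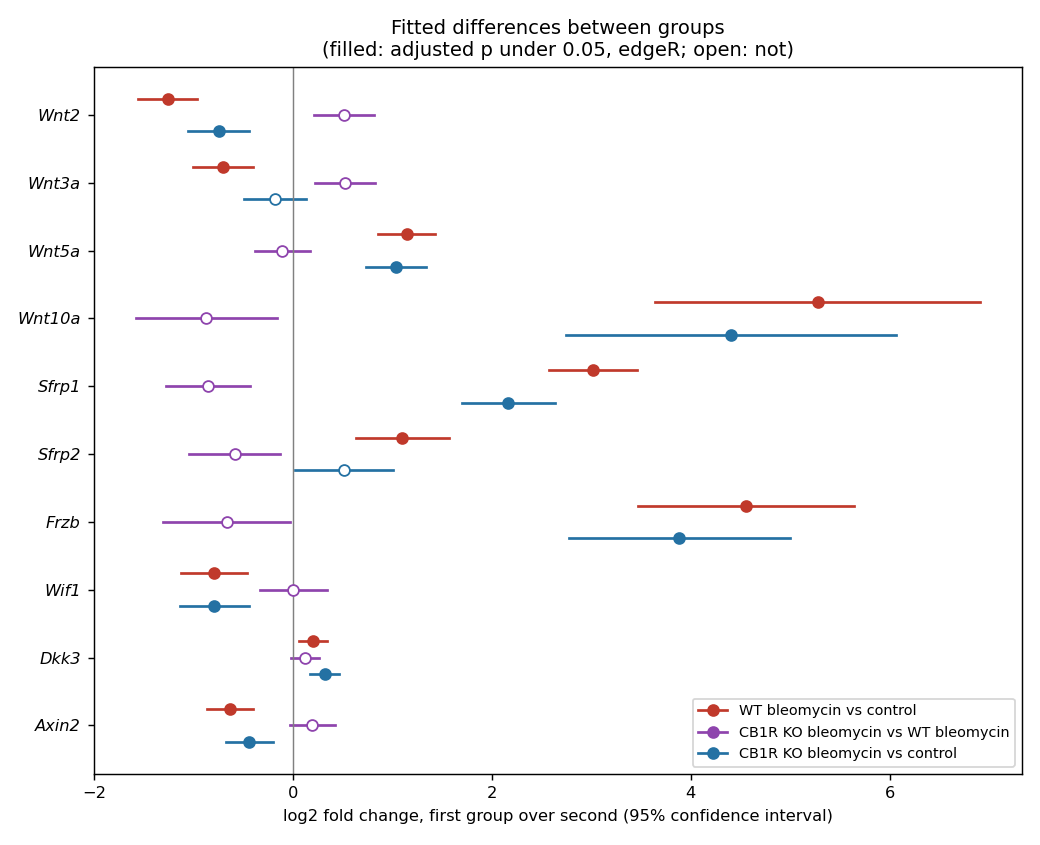
Log2 fold changes of the 10 genes in the 3 comparisons, as points with 95% confidence intervals from edgeR, filled where the adjusted p was under 0.05. No purple point, for CB1R KO against WT bleomycin, is filled.

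The second comparison asked whether the same genes differed between CB1R KO and wild-type lungs when both had received bleomycin. In edgeR no member reached the threshold (0 of 10), where 0.359% of all genes were called higher and 0.620% lower. At an unadjusted p under 0.05 there were 6 of the 10, namely Wnt2, Wnt3a, Wnt10a, Sfrp1, Sfrp2 and Frzb, against 17.0% of all genes. Among the 74 other pathway genes tested there were 18. The 10 genes were picked with earlier results of these data known, and Wnt10a and Frzb passed the filter only through bleomycin libraries. The count of 6 therefore gives no measure of how unusual the family is. No gene had groups without overlap, against 5.60% of all genes. Without CB1R KO replicate 10, 4 genes were called (Wnt2, Wnt3a, Sfrp1 and Sfrp2), without WT bleomycin replicate 4 there were 2 (Wnt3a and Sfrp1), and DESeq2 on the 13 libraries called 3 (Wnt2, Wnt3a and Sfrp1). Calls over all genes rose under the same settings, from 150 to 653, 230 and 640. With CB1R KO replicate 8, 9 or 11 left out in place of replicate 10, no member was called.

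Sfrp1 came nearest to the threshold. The CB1R KO libraries stood at 115, 87.0, 155 and 117 CPM in replicates 8, 9, 10 and 11, against 146 to 294 CPM in the WT bleomycin libraries. Replicate 10 was the only one to reach into the wild-type range. The log2 fold change was -0.86 ± 0.20 (SE), with a 95% interval of -1.28 to -0.43 and an edgeR adjusted p of 0.0599, and without replicate 10 it was -1.009 with an adjusted p of 0.0193. Over its 25 alternatives the adjusted p was under 0.05 in 4. The activated fibroblast sum was 1103 to 1663 TPM in CB1R KO against 1508 to 2009 TPM in WT bleomycin, with replicate 10 the highest of the 4 and none of the 6 markers called, and its part in the Sfrp1 values was not tested.

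Wnt2 and Wnt3a lay on the opposite side. Wnt2 stood at 13.8, 13.1, 10.3 and 11.9 CPM in the 4 CB1R KO libraries, between the WT bleomycin range of 6.92 to 10.5 and the control range of 15.98 to 23.7, with replicate 10 again inside the wild-type range. Its log2 fold change of 0.51 ± 0.14 (SE, 95% interval 0.21 to 0.81) had an edgeR adjusted p of 0.0903, and 0.0395 without replicate 10. Alveolar fibroblast markers, 1 of 6 called higher in CB1R KO, summed to 2472, 2198, 1267 and 1669 TPM in replicates 8, 9, 10 and 11, and endothelial markers, 1 of 5 called higher, to 1196 to 1433 TPM against 1029 to 1233 in WT bleomycin. Their part in the Wnt2 values was not tested. Wnt3a stood at 21.9, 21.9, 15.2 and 21.3 CPM, replicate 10 being the lowest by a wide gap. Its log2 fold change was 0.52 ± 0.14 (SE, 95% interval 0.22 to 0.83), with an adjusted p of 0.0828 that became 0.0193 without replicate 10 and 0.0326 without WT bleomycin replicate 4. Type II markers, of which 3 of 6 were called higher in CB1R KO, summed to 33040.4, 37202, 23678 and 35834 TPM in replicates 8, 9, 10 and 11, and their part in the Wnt3a values was not tested.

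The other members with an unadjusted p under 0.05 were lower in CB1R KO and varied widely within the group. Wnt10a stood at 1.05, 1.03, 2.80 and 2.12 CPM, with a log2 fold change of -0.87 ± 0.33 (SE, adjusted p = 0.204). Frzb stood at 2.42, 1.63, 6.34 and 4.49 CPM, a span of nearly 4 times, with -0.67 ± 0.30 (adjusted p = 0.276). Sfrp2 stood at 9.61, 11.6, 17.6 and 10.7 CPM, with -0.59 ± 0.21 (adjusted p = 0.187). In each of these genes replicate 10 was the highest of the 4 and lay within the wild-type range. Without it the log2 fold change was -1.14 for Wnt10a (adjusted p = 0.0837), -1.01 for Frzb (adjusted p = 0.0618) and -0.80 for Sfrp2, which was then called (adjusted p = 0.0474).

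For the remaining members the intervals bounded the size of any difference. Wnt5a stood at 46.1, 34.1, 46.9 and 50.2 CPM, with a log2 fold change of -0.11 and an interval of -0.38 to 0.17. Wif1 stood at 2.75, 4.04, 3.23 and 2.81 CPM, with a fold change of 0.00 and an interval of -0.33 to 0.34. Axin2, at 31.3, 29.4, 22.4 and 24.0 CPM, split into 2 libraries above every WT bleomycin value and 2 within that range, and its log2 fold change was 0.20 (interval -0.03 to 0.42, adjusted p = 0.375). Dkk3 was tightest, at 126, 125, 131 and 126 CPM, with a log2 fold change of 0.12 and an interval of -0.02 to 0.26. Without replicate 10 the log2 fold changes were -0.13 for Wnt5a, -0.0011 for Wif1, 0.27 for Axin2 and 0.10 for Dkk3, and none was called (edgeR adjusted p = 0.177 to 0.998).

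**Figure D3:**
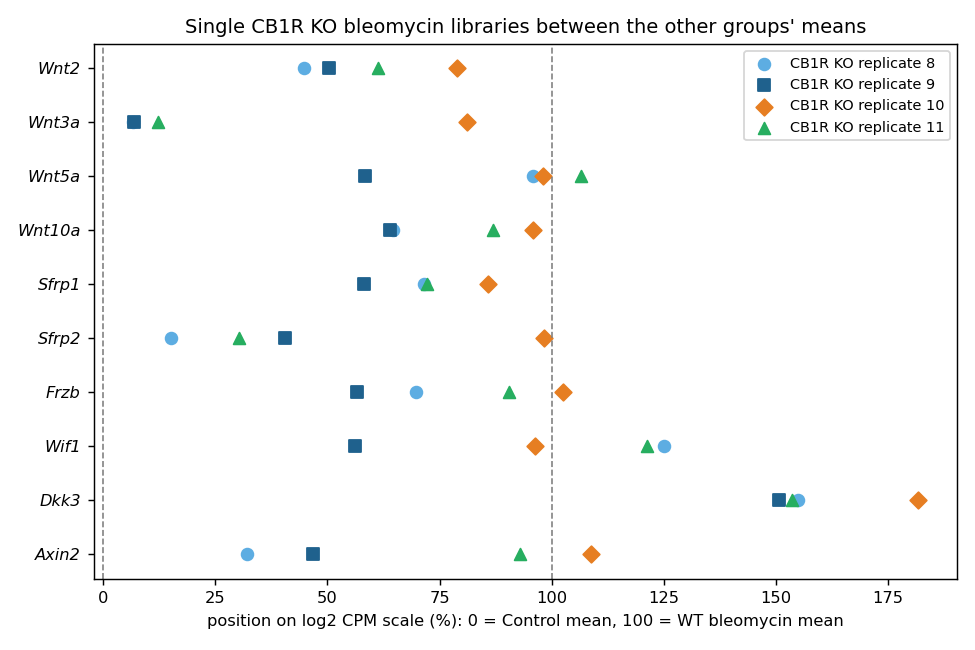
Position of each CB1R KO bleomycin library for the 10 genes on the log2 CPM scale, where 0% is the control mean and 100% the WT bleomycin mean, with 1 symbol per library. Replicate 10 (diamonds) lies farthest to the right for 8 of the 10 genes, and replicates 8 and 9 are the lowest for 4 and 6 genes.

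The 4 CB1R KO libraries were placed on a scale from the control mean (0%) to the WT bleomycin mean (100%) of each gene, in log2 CPM. As a description, the median over the 10 genes was 67.1% for replicate 8, 56.3% for replicate 9, 97.1% for replicate 10 and 88.8% for replicate 11. Replicate 10 was the highest for 8 genes. Over libraries, Wnt3a had the lowest mean position at 26.6% ± 36.4 (SD, n = 4), then Sfrp2 at 46.0% ± 36.4, Wnt2 at 58.8% ± 15.0, Axin2 at 70.1% ± 36.6 and Sfrp1 at 71.9% ± 11.3. Wnt10a at 77.8%, Frzb at 79.8%, Wnt5a at 89.7% and Wif1 at 99.7% lay nearer to the wild-type mean. The SD covers the CB1R KO libraries only, not the spread behind the means that set the scale. Dkk3 went past the wild-type mean, at 160% ± 14.4, on a scale whose full length for this gene was only its small wild-type difference.

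The third comparison set CB1R KO bleomycin lungs against controls. Of the 10 genes, 8 passed the threshold, 5 higher (Wnt5a, Wnt10a, Sfrp1, Frzb and Dkk3) and 3 lower (Wnt2, Wif1 and Axin2), where 19.0% of all genes were called higher and 16.3% lower. The groups did not overlap for 8 of the 10, against 33.5% of all genes. As in the first comparison, the genes were picked with results known, and Wnt10a and Frzb passed the filter only through bleomycin libraries. These counts therefore give no measure of how unusual the family is. The comparison shares its controls with the first one, so the 2 sets of values are not independent. Sfrp1 was 4.48-fold higher (log2 fold change 2.16 ± 0.22, SE, adjusted p = 9.58e-06) and Wnt5a 2.05-fold (1.04 ± 0.14, adjusted p = 8.03e-05). The ratio of summed counts was 24.4 for Wnt10a (exact 95% interval 10.3 to 76.0) and 16.2 for Frzb (9.84 to 28.6), counting error only. Wnt2 was lower by a log2 fold change of -0.75 ± 0.14 (adjusted p = 0.00120), Wif1 by -0.79 ± 0.16 (adjusted p = 0.00183) and Axin2 by -0.44 ± 0.11 (adjusted p = 0.00727). Dkk3 was 0.32 ± 0.07 higher (adjusted p = 0.00277).

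Wnt3a and Sfrp2 did not pass. Wnt3a had a log2 fold change of -0.18 with an interval of -0.49 to 0.14 and an edgeR adjusted p of 0.366. Sfrp2 had 0.51 with an interval of 0.02 to 1.008 and an adjusted p of 0.09997, which DESeq2 on these 2 groups moved to 0.0415.

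Ligand and antagonist transcripts were also summed as pools. The 19 Wnt ligand genes summed to 99.1 ± 4.31 TPM in controls (SD, n = 4), 104.7 ± 2.95 TPM in WT bleomycin (n = 5) and 100.5 ± 3.78 TPM in CB1R KO bleomycin (n = 4). These totals lay close together while the share of single genes differed, as a description with no test. Wnt2 made up 14.1% of ligand TPM in controls and 5.73% in WT bleomycin, Wnt3a 12.5% and 7.45%, and Wnt10b 20.9% and 5.77%. Wnt5a went from 6.08% to 13.5%, Wnt7a from 6.89% to 12.1% and Wnt7b from 2.84% to 9.31%. The largest mean share in WT bleomycin was that of Wnt11, at 24.1%. In controls Wnt11 held 15.7%, with a range of 8.73% to 22.5%, and in CB1R KO bleomycin 15.1%. The 13 antagonist genes summed to 77.1 ± 6.78 TPM in controls, 161 ± 25.3 TPM in WT bleomycin and 127 ± 14.6 TPM in CB1R KO bleomycin. Dkk3 held 58.5% of the antagonist sum in controls, 33.3% in WT bleomycin and 46.9% in CB1R KO bleomycin, and Sfrp1 held 11.4%, 44.9% and 32.6%.

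**Figure D4:**
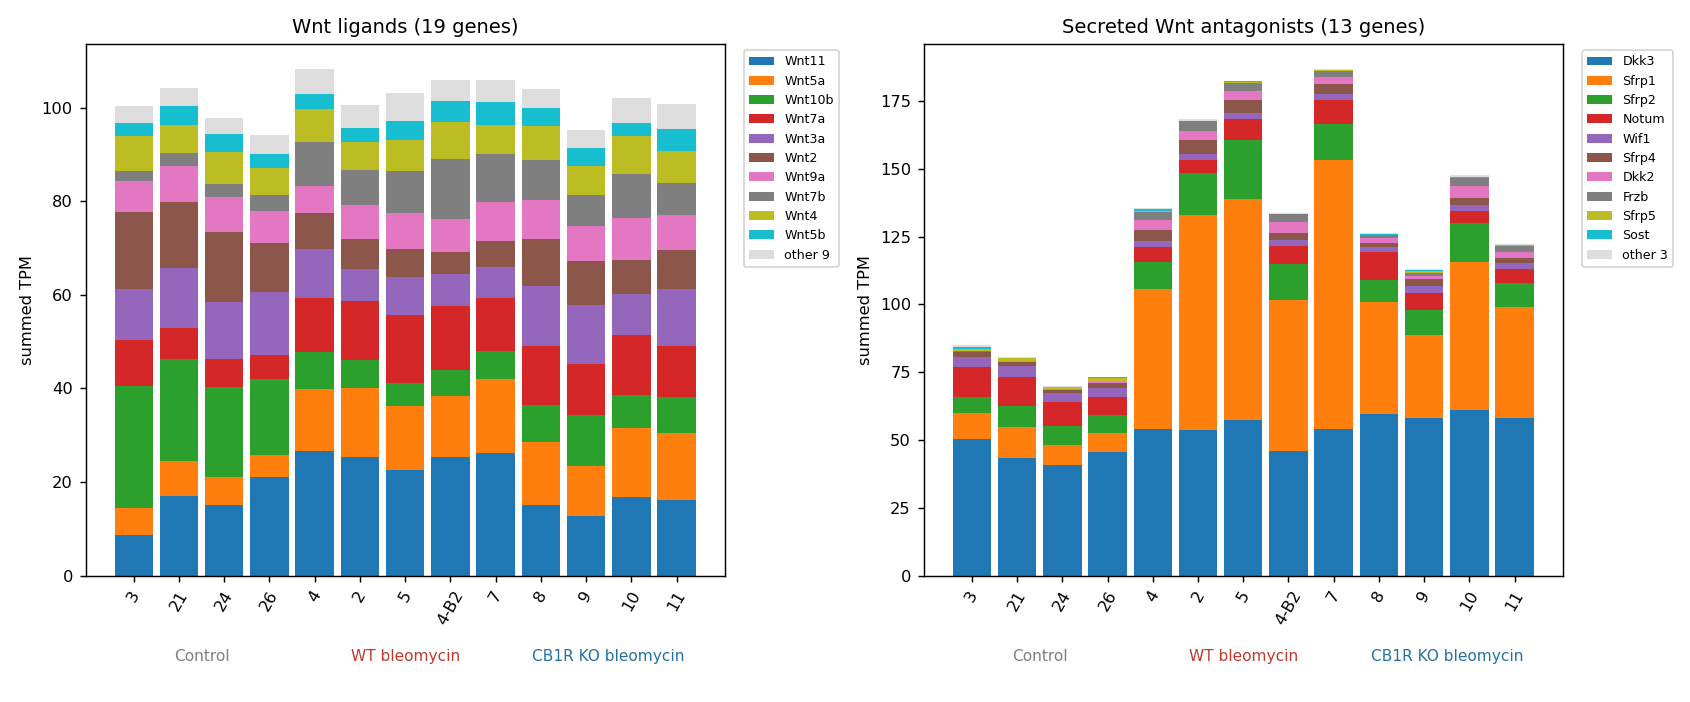
Summed TPM of the 19 Wnt ligand genes (left) and the 13 secreted antagonist genes (right) in each library, stacked by gene, with replicate names below and the least abundant genes grouped. Ligand bars all end between 94.1 and 108 TPM, while antagonist bars run from 69.8 to 84.9 TPM in controls and from 134 to 187 TPM in WT bleomycin.

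Beyond the 10 genes, 85 other genes of the pathway were counted in 7 lists, of which 74 passed the filter. Of these 74, 19 were called higher, 23 lower and 32 not in WT bleomycin against control, with a median log2 fold change of -0.03 beside -0.01 over all genes tested. These counts, and those of the single lists below, stand beside 25.0% of all genes called higher and 23.9% lower. In CB1R KO against WT bleomycin 1 of the 74 was called, lower, and 18 had an unadjusted p under 0.05, beside 17.0% of all genes. In CB1R KO bleomycin against control 14 were higher and 23 lower, beside 19.0% and 16.3% of all genes.

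Of the 10 other ligands tested, 5 rose and 2 fell in WT bleomycin. Wnt7b and Wnt7a, ligands of lung epithelium, rose by 1.76 ± 0.18 and 0.86 ± 0.15 on the log2 scale (SE, adjusted p = 3.43e-06 and 0.000340). Wnt9b rose by 1.70 ± 0.49 (adjusted p = 0.00857) from a very low level. Wnt10b fell by 1.85 ± 0.16 (adjusted p = 5.39e-07), opposite in direction to its close relative Wnt10a, and Wnt2b, the relative of Wnt2, fell by 1.04 ± 0.19 (adjusted p = 0.000449). Wnt1, Wnt3, Wnt8a, Wnt8b and Wnt16 did not pass the filter.

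Wnt11, a ligand tied to polarity and heart development, was the 1 pathway gene called between the genotypes. It stood at 25.2 ± 1.57 TPM in WT bleomycin (SD, n = 5), with a range of 22.6 to 26.7, and at 15.2 ± 1.83 TPM in CB1R KO bleomycin (n = 4), with a range of 12.7 to 16.9. The groups did not overlap. The log2 fold change was -0.81 ± 0.14 (SE, edgeR adjusted p = 0.0251), and controls spread from 8.75 to 21.1 TPM. The call was kept in 16 of 25 alternatives, with adjusted p from 4.14e-09 with DESeq2 on the 2 groups to 0.0954 with only the libraries labelled in lower case, and it was lost without WT bleomycin replicate 5, 4-B2 or 7 or CB1R KO replicate 8, 9 or 11 (adjusted p = 0.0565 to 0.0929). Smooth muscle markers, 2 of 6 called lower in CB1R KO, summed to 556 to 656 TPM against 665 to 997 TPM in WT bleomycin, and their part in the Wnt11 values was not tested. Against controls Wnt11 was 0.49 higher in WT bleomycin (adjusted p = 0.0113) and differed by -0.31 in CB1R KO bleomycin (adjusted p = 0.125).

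Among the other antagonists 4 were tested. Dkk2, which blocks Lrp co-receptors, rose by 3.30 ± 0.33 on the log2 scale (SE, adjusted p = 1.78e-06), and Sfrp4 rose by 1.31 ± 0.24 (adjusted p = 0.000488). Both stayed far below Sfrp1, at 3.37 and 4.07 TPM. The other 2 were not called. Sfrp5 had a log2 fold change of -1.52 ± 0.66 (adjusted p = 0.0640), opposite in sign to Dkk2 and Sfrp4, on 1 to 25 estimated counts in the controls and WT bleomycin libraries. Notum, an enzyme that removes the lipid from Wnt proteins, had -0.36 ± 0.25 (adjusted p = 0.253). Dkk1, Dkk4, Sost and Sostdc1 did not pass the filter.

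In ligand secretion and the R-spondin axis 1 of 11 genes rose and 4 fell, again beside 25.0% and 23.9% of all genes. Wls, which carries Wnt ligands to the surface, rose by 0.19 ± 0.06 (SE, adjusted p = 0.0259). Rspo1, a secreted amplifier of Wnt signaling, fell by 0.89 ± 0.15 (adjusted p = 0.000187), and the Frizzled ubiquitin ligases Znrf3 and Rnf43, both also known as Wnt targets, fell by 0.57 ± 0.11 and 0.58 ± 0.12 (adjusted p = 0.000472 and 0.00141).

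Of 15 receptors tested, 3 rose and 3 fell, beside 25.0% and 23.9% of all genes. The risers were Fzd1 at 1.20 ± 0.12, Ror2 at 1.65 ± 0.18 and Ror1 at 0.43 ± 0.11 in log2 fold change (adjusted p = 2.14e-06, 6.75e-06 and 0.00658), where Ror1 and Ror2 are receptors for Wnt5a. Those that fell were Fzd4, a receptor prominent in endothelium, by 0.92 ± 0.15, Fzd7 by 0.63 ± 0.10 and the co-receptor Lrp5 by 0.38 ± 0.06 (adjusted p = 0.000147, 0.000100 and 0.000160).

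Within beta-catenin transduction 3 of 18 genes rose and 8 fell, mostly by small amounts. Lef1 and Tcf7, DNA-binding partners of beta-catenin that T cells also express, fell by 1.12 ± 0.14 and 0.62 ± 0.12 on the log2 scale (SE, adjusted p = 1.31e-05 and 0.000802). The coactivator gene Bcl9l fell by 0.45 ± 0.09 (adjusted p = 0.000740). Ctnnb1, which encodes beta-catenin, rose by 0.17 ± 0.06 (adjusted p = 0.0358), the kinase gene Csnk1a1 by 0.18 ± 0.05 and Tcf7l2 by 0.41 ± 0.12 (adjusted p = 0.0131 and 0.0135). Of the 5 T cell markers 1 was called lower, with summed levels of 28.4 to 46.5 TPM against 32.7 to 58.0 TPM in the controls.

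Feedback and target genes did not move one way. Besides Axin2, 2 of the 7 others fell: Bambi by 1.15 ± 0.13 and Nkd1, an inhibitor induced by Wnt, by 0.48 ± 0.11 on the log2 scale (SE, adjusted p = 5.66e-06 and 0.00302). The 3 that rose were Ccnd1, a cell cycle gene, by 0.88 ± 0.07, Ccn4, a matricellular gene also called Wisp1, by 2.60 ± 0.29, and Sp5 by 0.72 ± 0.26 (adjusted p = 4.84e-07, 8.00e-06 and 0.0353). Ccnd1 and Ccn4 have many inputs other than Wnt.

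Planar polarity genes were also mixed, with 2 of 9 higher and 4 lower where 25.0% and 23.9% of all genes were. Prickle1 fell by 1.43 ± 0.17, Prickle2 by 0.73 ± 0.10 and Celsr2 by 0.32 ± 0.08 on the log2 scale (SE, adjusted p = 1.18e-05, 4.86e-05 and 0.00637), while Celsr1 rose by 0.43 ± 0.07 and Vangl1 by 0.24 ± 0.08 (adjusted p = 0.000295 and 0.0226).

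**Figure D5:**
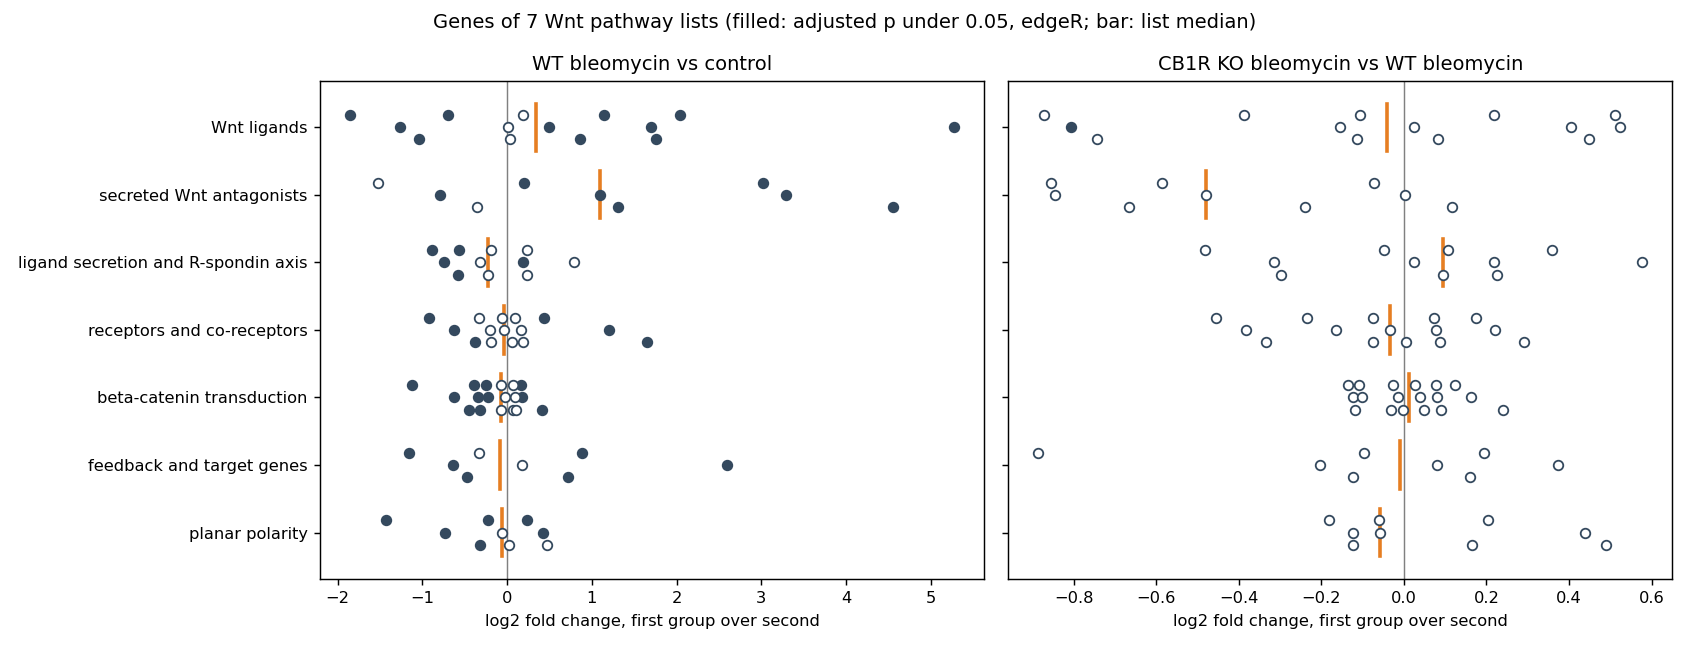
Log2 fold changes of all tested genes of the 7 pathway lists, the 10 genes included, in WT bleomycin against control (left) and CB1R KO against WT bleomycin (right, on a narrower axis), filled where the adjusted p was under 0.05, with a bar at each list's median. The antagonist median is 1.10 on the left and -0.48 on the right with the picked members included, and 0.47 and -0.36 without them. On the right 1 point, Wnt11, is filled.

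The genes closest to each member were sought by the root mean square difference of log2 CPM profiles over the 13 libraries, each centered on its own mean. For Sfrp1 they were Fn1 (0.22), Col5a2 (0.22) and Cldn6 (0.25), for Sfrp2 Col12a1 (0.21), Loxl3 (0.21) and Fmn1 (0.23), and for Wnt5a they included Lgals3bp (0.16) and Sparc (0.16). For Wnt3a they were Enpep (0.15), Tfcp2l1 (0.16) and the surfactant gene Sftpc (0.16). For Wnt2 they were Adgre5 (0.14), C130074G19Rik (0.15) and Ccrl2 (0.16), for Wif1 Stmnd1 (0.12), Abhd14b (0.14) and Mtus1 (0.14), and for Axin2 Limch1 (0.09), Cdc42bpg (0.10) and Casz1 (0.10). Dkk3, which varied little, lay close to Cog6 (0.06), Gskip (0.07) and Hk1 (0.08). Wnt10a was nearest to Frzb (0.43), Adamts12 (0.44) and P4ha3 (0.47), and Frzb to Ackr1 (0.35), Lama1 (0.35) and Cxcl10 (0.36). The larger differences of Wnt10a and Frzb go with their low control counts, and a small difference mainly says that 2 genes differ alike between the 3 groups.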

How the data were processed

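RNA-seq of the lower right lung lobe gave 13 libraries in 3 groups, taken from the treatment labels. The deposited tables hold the authors' estimated counts and TPM, made with Kallisto on the Ensembl mouse release and summed over protein-coding transcripts per gene; per the labels the build was GRCm39. Of the count values, 64.8% lay further than 0.001 from a whole number. 1 further TPM column matched no sample and was not used. The single-sample tables repeated the same values.

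Estimated counts were rounded. Genes were kept with filterByExpr of edgeR 4.0.16 by group, normalized by TMM and tested with glmQLFit and glmQLFTest (R 4.3.3), with Benjamini-Hochberg adjustment over 15315 genes and a threshold of 0.05. CPM values are TMM-scaled, and the log2 CPM scale adds a prior count of 2. The script was tested on simulated data: at a log2 fold change of 1, 84 of 100 changed genes were called in the simulation of CB1R KO against WT bleomycin, over 15025 genes. The changed genes had control means above 1 CPM, which leaves out Wnt10a and Frzb. All 10 genes differed by less than this fold change in that comparison, so the 84 does not measure the power for them. DESeq2 1.42.0 and limma 3.58.1 (log2 TPM) were alternatives, with other filters, normalizations and left-out libraries. The genes, the 7 pathway lists and the 16 cell type marker lists were chosen with earlier results of these data known. Besides the 10 genes, the text names the 3 lowest p-values per pathway list and direction, any pathway gene called between genotypes, and each gene's 3 nearest profiles, of which 1 is not reported here; Notum, Sfrp5 and the untested genes were named after their values were seen. No source states that each library is 1 mouse, so p-values measure the spread between these libraries. Depth was 14615904 to 53463884 counts per library.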

Additional observations from a re-analysis of the deposited data

Results flagged for a closer look

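Among the 30 combinations of the 10 genes with the 3 groups, 2 held a library that stood apart from its group, by the gap to its nearest neighbor over the whole range of the group, and chance flags about 1 in 20 groups. Both were CB1R KO bleomycin replicate 10. For Wnt3a it was the lowest of the 4, at a log2 CPM of 3.93 against 4.42 for the next, and the gap took up 0.925 of the range. For Dkk3 it was the highest, at 7.03 against 6.98, with a gap of 0.866 of the range, although the whole range of Dkk3 in this group was narrow.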

How the results depend on the processing

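Over 25 alternatives, all 10 genes kept the direction of their difference between WT bleomycin and control, and their calls with the exception of Dkk3, which was lost in 2. For CB1R KO against WT bleomycin the main count of 0 members called was 3 with DESeq2 on the 13 libraries, 3 with DESeq2 on the 2 groups, and 0 to 4 when single libraries were left out. Over all pathway genes the main count of 1 became 6 and 7 with DESeq2, 0 with limma on log2(TPM + 1), 0 with limma on log2(TPM + 0.1), 0 with only the libraries labelled in lower case, and 0 to 10 when single libraries were left out, the cause of which was not tested. The count was 10 without CB1R KO replicate 10, 4 without WT bleomycin replicate 4, and 0 without WT bleomycin replicate 5, 4-B2 or 7 or without CB1R KO replicate 8, 9 or 11. Calls over all genes, 150 as reported, moved with it: they were 653, then 230, then 24, 30 and 35, and 9, 1 and 3 in the same order. Wif1, at a log2 fold change of 0.00 in that comparison, changed sign to -9.64e-05 with upper-quartile normalization, -0.05 without WT bleomycin replicate 2, -0.02 without WT bleomycin replicate 5, -0.12 without CB1R KO replicate 9, -0.0011 without CB1R KO replicate 10, where leaving out single libraries ranged from -0.12 to 0.076, and -0.0064 with DESeq2. No paired analysis was possible because the groups share no replicate numbers. Letter case of the labels, entered as a term, changed no member's call. Calls over all genes between CB1R KO and WT bleomycin went from 150 to 41 with that term. They were 6 with only the libraries labelled in lower case. No CB1R KO label held capitals, so letter case and genotype cannot be fully told apart. A filter of 10 counts in every library removed Wnt10a and Frzb, whose control counts of 0 to 5 limit the precision of their fold changes, and limma on TPM gave smaller values for both.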
